A study of Homo sapiens with 2 samples.

Results

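The NOTCH pathway was followed here through 10 genes: the receptors NOTCH1, NOTCH2 and NOTCH3, the ligands DLL1, DLL4, JAG1 and JAG2, and the target genes HES1, HEY1 and HEY2. The TET1 peaks of these genes were taken as every peak that touched a gene's span, given in whole kb on hg19, or the 20 kb on either side of it. The rule uses positions only, and it returned 57 peaks of the 46208 in the deposited list: 22 at the 3 receptor genes, 27 at the 4 ligand genes and 8 at the 3 target genes. The windows together were 762 kb long, of which 362 kb lay inside the genes.

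The peaks came from 1 library, a ChIP against the V5 tag in H1 human embryonic stem cells whose own TET1 gene carries that tag, set against 1 input library of the same kind of cell. Both libraries were cardiac progenitors collected on day 7 of a monolayer differentiation, with 6 µM of the WNT activator CHIR99021 up to day 2 and 5 µM of the WNT inhibitor IWP2 between day 3 and day 5. Both are listed under a wild-type genotype and neither received any further treatment. There was no replicate and no V5 ChIP of cells without the tag among the samples, so no value has a replicate spread, no p-value is given, and antibody signal from other proteins cannot be told apart from TET1. A peak list holds no expression, so neither the progenitor identity nor the activity of these genes was checked.

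NOTCH receptors are membrane proteins that are cut when a Delta or Jagged ligand on a neighbouring cell binds them. The freed intracellular part enters the nucleus, joins the DNA-binding protein RBPJ and switches on targets such as the HES and HEY genes, which encode bHLH repressors. In the heart the pathway is known for its work in the endocardium, the valves, the outflow tract and the trabeculae. TET1 oxidises methylated cytosine, and its CXXC domain binds DNA rich in the dinucleotide CG.

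All 10 genes carried a TET1 peak over the 5′ end. At each of them the outermost kb of the span at that end was covered in full, and the peak there belonged to the highest score class of its locus. Scores are the numbers the authors attached to the peaks and start at 50. Values of 3100 or more, where 2030 peaks are tied and 135 lie above, are taken as 1 class without an order and called the ceiling. At 8 of the 10 genes the 5′ peak stood at the ceiling, and the exceptions were JAG2 at 1589.7 and HEY2 at 1987. For comparison, 8.06% of all 4 kb windows between the first and last peak of each chromosome touched a peak, and 0.627% touched a peak at the ceiling. Those windows are of any kind and mostly lie away from gene starts, so they give the genome's level and not the level of promoters.

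**Figure D1:**
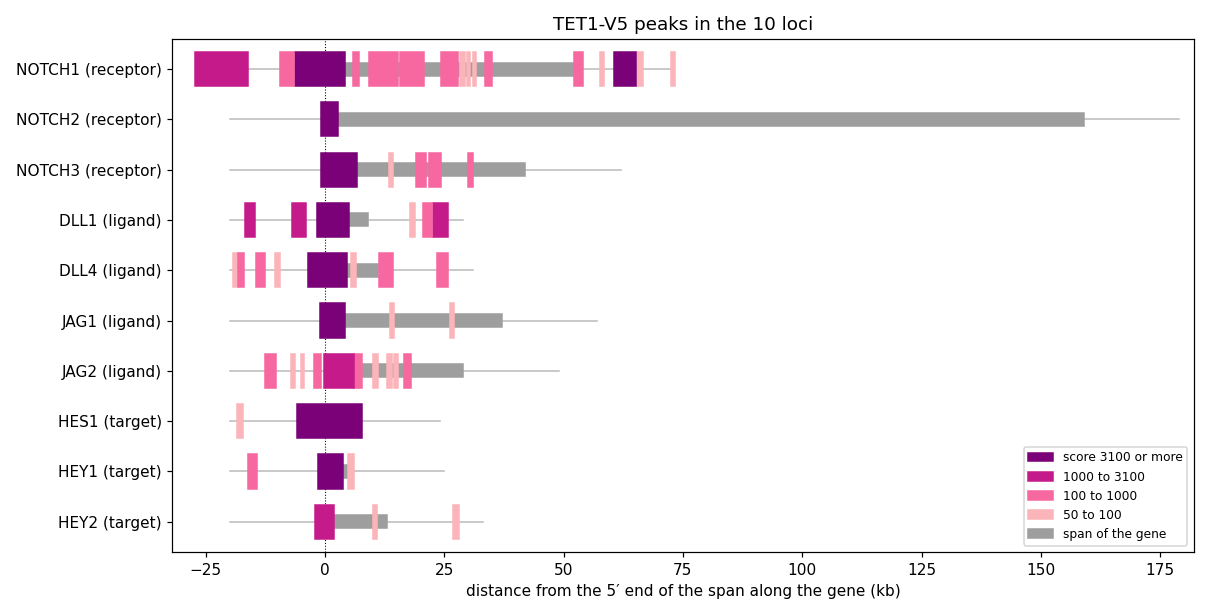
Peaks in the 10 loci, drawn by distance in kb from the 5′ end of each gene's span along the direction of transcription; grey bars are the spans, thin lines the 20 kb on either side, and colours the authors' score in 4 classes. Every locus has a peak at distance 0, the NOTCH2 span of 159 kb has no other, and the NOTCH1 locus holds 16 peaks, with a stretch of 17.3 kb inside the gene that has none.

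Sequences just before the start of the genes were read from RefSeq on GRCh38.p14, a different build from the peaks, so they were matched by gene and not base for base. Of the 10 genes, 8 had an entry there, and DLL1 and HEY1 are named only. The first sequences are those of NOTCH2, whose only peak lies here, of JAG1, which had the fewest CG of the 8, and of JAG2, which had the most CG and a peak below the ceiling. They are the 250 bases before the start on the minus strand at chr1:120069663-120069912, chr20:10674000-10674249 and chr14:105168777-105169026, with every CG in capitals.
NOTCH2: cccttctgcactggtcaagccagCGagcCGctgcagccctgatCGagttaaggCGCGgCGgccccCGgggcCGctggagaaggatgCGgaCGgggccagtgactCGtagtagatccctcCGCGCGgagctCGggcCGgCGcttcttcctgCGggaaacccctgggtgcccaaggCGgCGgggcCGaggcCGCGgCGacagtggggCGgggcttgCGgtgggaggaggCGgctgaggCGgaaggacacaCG
JAG1: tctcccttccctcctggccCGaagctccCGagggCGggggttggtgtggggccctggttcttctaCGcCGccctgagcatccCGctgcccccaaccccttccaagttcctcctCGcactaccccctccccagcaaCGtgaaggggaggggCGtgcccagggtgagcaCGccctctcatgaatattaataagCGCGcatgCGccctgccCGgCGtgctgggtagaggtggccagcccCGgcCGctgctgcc
JAG2: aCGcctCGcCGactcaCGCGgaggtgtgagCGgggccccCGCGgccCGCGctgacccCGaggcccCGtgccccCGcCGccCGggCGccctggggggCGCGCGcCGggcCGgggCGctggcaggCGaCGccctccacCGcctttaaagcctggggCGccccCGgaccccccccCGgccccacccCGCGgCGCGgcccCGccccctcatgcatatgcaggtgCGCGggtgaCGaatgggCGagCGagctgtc

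The 250 bases of NOTCH2 held 29 CG, those of JAG1 17 and those of JAG2 38. Over the 8 genes the number ran from 17 to 38 with a median of 28.5, against a median of 11 (quartiles 3 and 23) over all 35116 RefSeq promoter windows of that length. NOTCH1 had 33, NOTCH3 28, DLL4 20, HES1 18 and HEY2 35. JAG2 and HEY2, with 38 and 35 CG, had a 5′ peak below the ceiling. NOTCH1, with 33, had a peak at it, as did JAG1 and HES1 with the fewest. These are 8 genes, without DLL1 and HEY1, and a relation of CG to score was not tested. The ceiling holds its peaks in 1 class, so no order by CG can be read among the others.

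The other sequences are those of the target genes HES1 (plus strand, chr3:194135898-194136147) and HEY2 (plus strand, chr6:125749382-125749631), shown because RBPJ acts on such genes. Capitals mark the letters TGGGAA, the core of the RBPJ site, or their complement TTCCCA. These letter runs cannot overlap each other.
HES1: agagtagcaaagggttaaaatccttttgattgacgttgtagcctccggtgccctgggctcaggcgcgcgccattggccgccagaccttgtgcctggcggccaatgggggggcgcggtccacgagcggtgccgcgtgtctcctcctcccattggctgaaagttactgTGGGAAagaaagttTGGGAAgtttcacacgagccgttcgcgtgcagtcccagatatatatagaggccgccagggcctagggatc
HEY2: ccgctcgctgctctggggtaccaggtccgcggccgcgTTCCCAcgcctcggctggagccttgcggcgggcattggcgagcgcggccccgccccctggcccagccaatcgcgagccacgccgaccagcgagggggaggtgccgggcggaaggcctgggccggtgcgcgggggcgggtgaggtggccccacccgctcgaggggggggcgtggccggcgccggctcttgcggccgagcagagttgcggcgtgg

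HES1 held the motif at 2 places, starting 84 and 70 bases before the start, both as TGGGAA. HEY2 held it at 1 place, as TTCCCA starting 213 bases before the start. The 6 receptor and ligand genes with an entry had none in this window, and the target gene HEY1 had no entry. Over all 35116 windows, 20.8% held the motif at least at 1 place and 2.90% at 2 or more. Against this share, the motif in 2 of the 8 genes shows no difference from other promoters. Nor can a difference between the roles be read from so few genes. A match describes the letters and is not shown to be a site in use.

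Across the 10 genes the widest 5′ peak was that of HES1 with 13564 bp, followed by NOTCH1 with 10376 bp, DLL4 with 8274 bp, NOTCH3 with 7468 bp, DLL1 with 6684 bp and JAG2 with 6254 bp. HEY1 had 5384 bp, JAG1 5210 bp, HEY2 4052 bp and NOTCH2 3442 bp. Their median was 6469 bp, and each was wider than at least 90.3% of the list. Peaks 5 kb or wider numbered 8 of these 10, against 3.20% of the whole list. These 10 were picked for touching a set point, which favours wide peaks. The list holds peaks of any place, so this is no comparison with other gene starts. The 5′ peak was the widest peak of its locus at 9 genes, the exception being NOTCH1. At 7 genes more of it lay inside the span than before it, from 55.9% of its width at DLL4 to 95.7% at JAG2. Spans are rounded to whole kb and exceed the gene, at DLL4 by 1.266 kb over both ends. Which side of the DLL4 gene start held more of the peak is therefore not settled. At NOTCH1, HES1 and HEY2 the share inside was 39.6%, 29.5% and 46.9%.

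**Figure D2:**
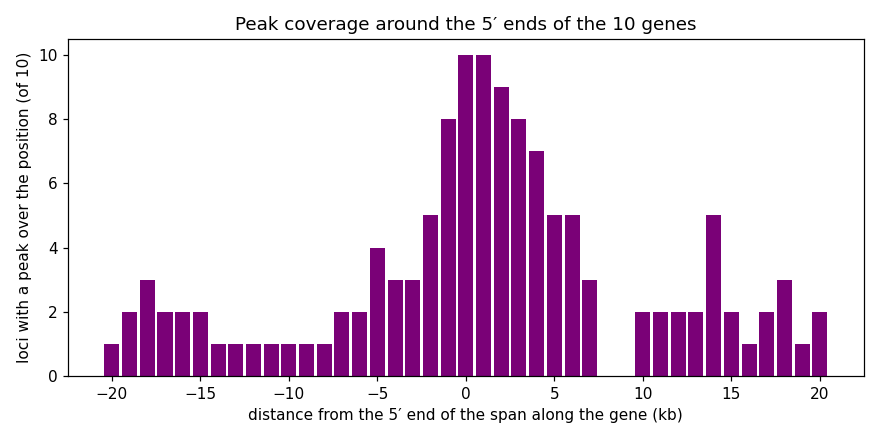
Number of the 10 loci with a peak over each position, from 20 kb before to 20 kb after the 5′ end of the span, in steps of 1 kb. All 10 are covered at 0 and at 1 kb, 5 at 2 kb before and 9 at 2 kb after, and none at 8 and 9 kb after.

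Read by position, the coverage leaned into the spans, whose rounded 5′ ends can lie before the gene start. At 2 kb before the 5′ end 5 of the 10 loci lay under a peak and at 4 kb before 3 did, while 9 were covered at 2 kb and 7 at 4 kb inside. None was covered at 8 and 9 kb inside, where HES1 and HEY1, with spans of 4 and 5 kb, had already ended. Over the 20 kb before the genes 24.8% of the sequence was covered, over the spans 22.2% and over the 20 kb after them 12.8%. NOTCH1 supplied much of this: without it the shares were 20.3%, 17.8% and 9.64%. NOTCH2, with 159 of the 362 kb of spans at 1.67% covered, held the pooled span share down. The other spans ran from 15.8% at JAG1 to 100% at HES1, so the pooled shares do not give the order gene by gene.

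Among the receptors, NOTCH1, which is needed for the endocardium and the aortic valve, had the most peaks of all 10 genes. Its window of 93 kb held 16 peaks that covered 49.99% of it. The 5′ peak ran on chromosome 9 from 139436896 to 139447271, at a score of 3100, and reached 6.27 kb before and 4.10 kb into the gene. Next to it lay a peak of 3017 bp (score 377) only 0.222 kb away. The widest peak of the locus, 11097 bp from 139457232 to 139468328 with a score of 2418, began 16.2 kb before the gene. The noncoding genes NALT1 and MIR4674 lie on that side in RefSeq.

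Inside the NOTCH1 span a string of peaks followed the 5′ peak. The first was a peak of 1294 bp (score 189), from 5.78 to 7.08 kb from the 5′ end. Peaks of 6181 bp (score 760), 5014 bp (787) and 3733 bp (563) lay between 9.16 and 27.9 kb. Beyond them came weaker ones of 743 to 1534 bp with scores from 52.8 to 154, the last of these ending 35.0 kb inside. After a stretch of 17.3 kb without a peak, a peak of 1720 bp (score 168) lay across the 3′ end of the span. Past the 3′ end stood another peak at the ceiling, with a score of 3150.66 and a width of 4627 bp, from 139375841 to 139380467. It lay 60.5 kb from the 5′ end of NOTCH1, on the side where SEC16A, a gene of vesicle export from the endoplasmic reticulum, is the neighbour. To which gene it belongs was not tested.

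NOTCH2, a receptor known for its pairing with JAG1 in liver and heart, was the opposite. Its window of 199 kb, the longest of the 10, held 1 peak, on chromosome 1 from 120610343 to 120613784 (3442 bp, at the ceiling), over the 5′ end. The remaining span was empty, so that 1.67% of the gene was covered. The nearest peak on the side of the gene body was 298 kb away, and on the other side 37.9 kb. NOTCH2 has near-identical partial copies (the NOTCH2NL genes) on the same chromosome, and the treatment of reads that map to several places was not stated. The part of mapping in the empty span and in the 1 peak was not tested.

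NOTCH3, a receptor of vascular smooth muscle, had 5 peaks, and none had its midpoint outside the span. The 5′ peak, on chromosome 19 from 15305410 to 15312877 (7468 bp, at the ceiling), lay with 88.2% of its width inside the gene. Peaks of 2579 bp (score 721) and 2172 bp (458) stood 0.503 kb apart between 19.0 and 24.3 kb inside. A peak of 1111 bp (118) and another of 737 bp (54.4) made up the rest. Together they covered 31.4% of the span, against 47.6% for NOTCH1 and 1.67% for NOTCH2.

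**Figure D3:**
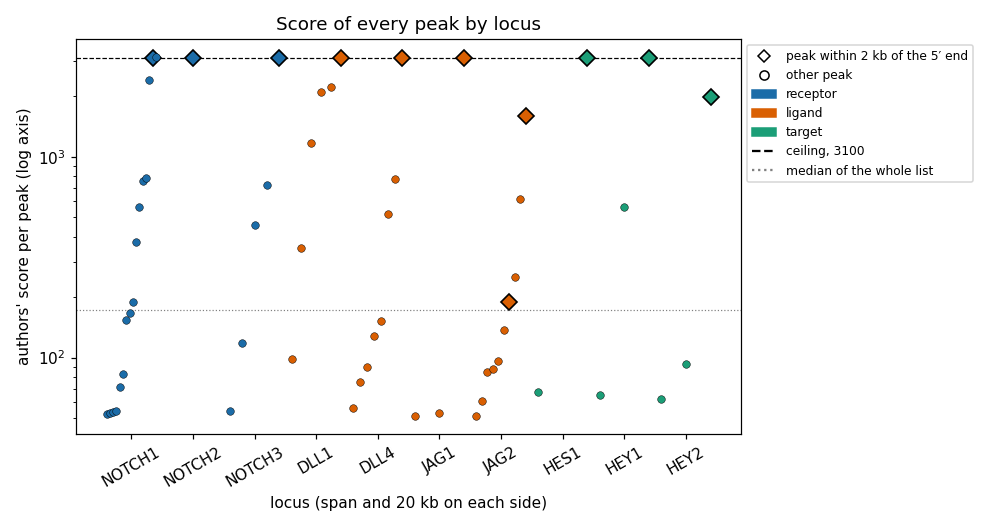
The authors' score of each of the 57 peaks by locus, on a log axis; diamonds are peaks within 2 kb of the 5′ end and circles the others, coloured by role, with the ceiling dashed and the median of the whole list dotted. The diamonds of 8 loci sit on the ceiling, those of JAG2 lie at 1589.7 and 188, that of HEY2 at 1987, and most circles lie below 1000.

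Of the ligands, DLL1, a Delta ligand best known from somite and neural development, was set apart by strong peaks on both sides of a short gene. Its 5′ peak on chromosome 6 from 170594974 to 170601657 (6684 bp, at the ceiling) covered 5.03 kb of the 9 kb span. Before the gene a peak of 2937 bp scored 2229 (170603946 to 170606882) and another of 2096 bp scored 1173 (170614685 to 170616780). After it a peak of 3106 bp scored 2109 (170574250 to 170577355). These 3, the widest NOTCH1 peak and the peak on the SEC16A side were the 5 peaks of score 1000 or more that were not at a 5′ end. FAM120B overlaps DLL1 in RefSeq and runs through the side before it, and the side after it holds the noncoding genes LINC01624, LOC285804 and LOC154449. The peaks were not assigned between these genes.

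DLL4, the ligand of arterial endothelium, had 8 peaks covering 38.5% of its window. The 5′ peak, on chromosome 15 from 41217352 to 41225625 (8274 bp, at the ceiling), began 3.65 kb before the gene and ended 4.63 kb inside. Before it were 4 weak peaks, with scores of 75.7, 89.4, 128 and 151. A further peak inside the gene scored 56.4. Stronger peaks lay after the gene, 3015 bp with a score of 777 and 2275 bp with a score of 519, on the side of CHAC1, a gene of glutathione breakdown.

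JAG1, the ligand whose loss in humans affects heart outflow and bile ducts, had 3 peaks. The 5′ peak on chromosome 20 from 10650860 to 10656069 (5210 bp) was at the ceiling and made up 75.5% of the covered sequence. The other peaks, of 870 and 821 bp inside the gene, scored 53.1 and 51.2, next to the lowest score in the list, 50. No peak lay before the 5′ peak for 704 kb. After the weakest peak the next stood 211 kb further on.

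JAG2, a ligand known from limb and palate development in mice, had 10 peaks, and none of them reached the ceiling. Its 5′ peak on chromosome 14 from 105630014 to 105636267 (6254 bp) scored 1589.7, the lowest of the 10 genes, though 87.8% of the list scored lower. It reached 5.99 kb inside and 0.267 kb before the span. The span exceeds the gene length by 1.218 kb, so the reach before the gene itself can be larger. Another peak of 1487 bp (score 188) began 0.545 kb from the 5′ peak. Peaks on both sides of it ran up to 252.6 inside the gene and 618 before it, where NUDT14 is the neighbour. Scores under 100 made up 5 of its 10 peaks.

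JAG1 and JAG2 thus had 5′ peaks of similar width, 5210 and 6254 bp, with 15.8% and 41.2% of their spans covered. With 1 library the replicate error of such a difference cannot be estimated, and no interval was computed for widths of single peaks or covered shares.

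Among the target genes HES1, the repressor that holds progenitors undifferentiated in many tissues, was covered from end to end. A single peak of 13564 bp on chromosome 3 from 193847079 to 193860642, at the ceiling, began 5.92 kb before the gene and ended 3.64 kb past its 3′ end. It was wider than 99.9% of the list. Peaks 10 kb or wider were 3 of the 57, this one and 2 at NOTCH1, against 0.290% of the whole list. The only other HES1 peak, 1117 bp with a score of 67.4, lay 17.3 kb before the gene.

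HEY1 and HEY2 encode repressors that in mice pattern the atrioventricular canal and the ventricles. The HEY1 5′ peak, on chromosome 8 from 80677166 to 80682549 (5384 bp, at the ceiling), covered 3.83 kb of the 5 kb span, and 81.0% of the span was covered in all. A weak peak of 1303 bp (score 64.8) touched its 3′ end, and another of 1896 bp (561) lay 14.2 kb before it. Beyond the weak peak at the 3′ end the list had no other for 999.8 kb.

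HEY2 had the narrower and lower 5′ peak of the pair, on chromosome 6 from 126067848 to 126071899 (4052 bp, score 1987). It ended 1.90 kb inside the gene, and 21.02% of the span was covered. Its other peaks scored 62.3 inside the gene and 93.2 after it, where NCOA7 is the neighbour. On the side before the gene, which it shares with the antisense gene HEY2-AS1, the next peak was 212 kb away. Reads on HEY2 and HEY2-AS1 start sites cannot be told apart in a peak list.

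**Figure D4:**
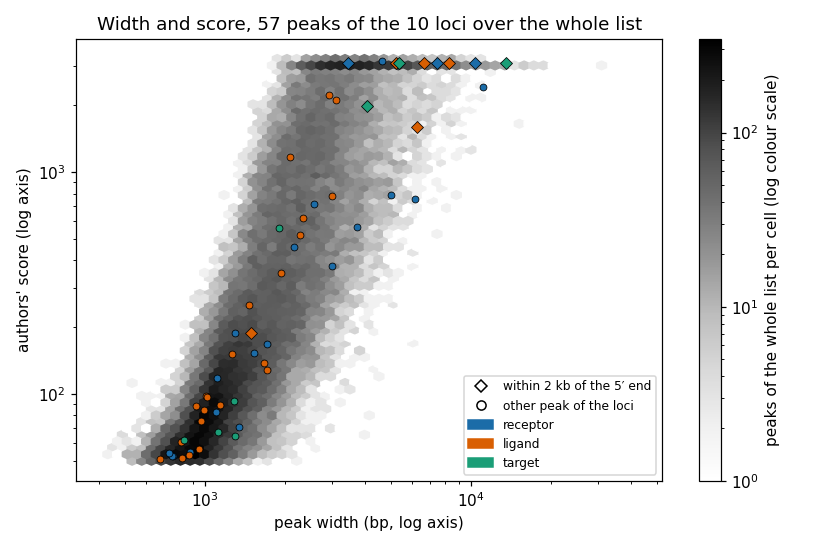
Width in bp against the authors' score, both on log axes, for the 57 peaks (coloured by role, diamonds within 2 kb of a 5′ end) over the whole list in grey. The 5′ peaks sit in the upper right from 3442 to 13564 bp, apart from the lesser JAG2 peak of 1487 bp, and the other peaks spread along the list's own cloud.

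As a set, the 57 peaks were mixed. Their median score of 188 (quartiles 75.7 and 1173) and median width of 1667 bp (quartiles 1009 and 3442 bp) were near the list's medians of 172 and 1531 bp. That nearness in score depended on how peaks were cut: with peaks up to 1 kb apart merged the medians were 519 in the loci and 195 in the list. At the ceiling were 9 of them, 15.8% (95% Wilson interval 8.54% to 27.4%), against 4.69% of the list. Scores of 1000 or more were reached by 15, 26.3% (16.6% to 39.0%), against 18.6%. Scores under 100 were held by 22, 38.6% (27.1% to 51.6%), against 32.9%. The widths of 5 kb or more came to 11, 19.3% (11.1% to 31.3%), against 3.20%, and 7 of these 11 were at the ceiling, against 45.3% of the list's peaks of that width. These intervals cover counting error only and take no account of neighbouring peaks being related. The windows were set around genes and each holds a 5′ end, while the list holds peaks of any place. These shares are therefore no comparison with other genes.

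Most of the high scores lay at the 5′ ends, which held 10 of the 15 peaks of score 1000 or more. Away from the 5′ ends 46 peaks had a median score of 123 and a median width of 1298.5 bp. At the ceiling was 1 of them, the one on the SEC16A side, or 2.17% against 4.69% of the list. Scores under 100 were held by 22 of these 46 and by none of the 11 peaks within 2 kb of a 5′ end. Inside the spans, 21 peaks lay apart from the 5′ peaks, with a median score of 96.7, a highest score of 787 and a median width of 1098 bp. Receptors, ligands and targets had median scores of 283, 151 and 327 over 22, 27 and 8 peaks, with quartiles that overlapped.

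**Figure D5:**
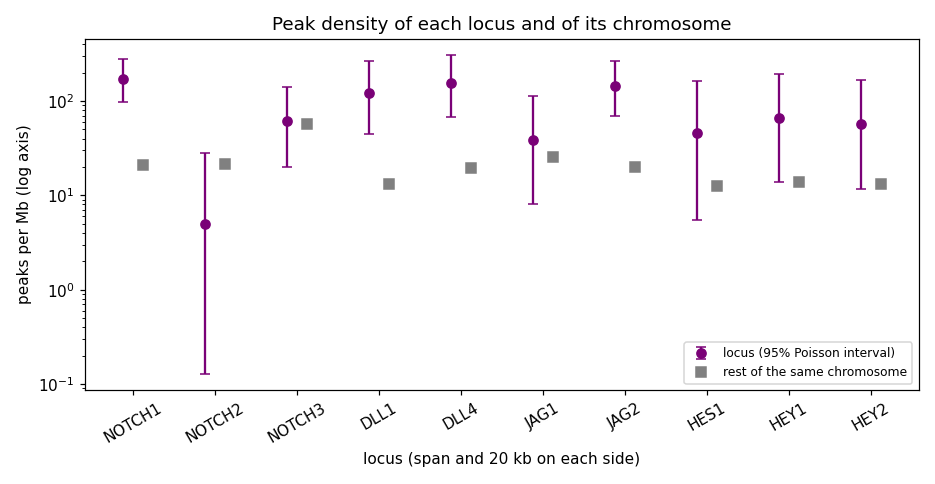
Peaks per Mb in each locus with exact 95% Poisson intervals, and peaks per Mb in the rest of the same chromosome, on a log axis. The intervals of NOTCH1, DLL1, DLL4 and JAG2 lie above their chromosome, and those of the other 6 loci reach it.

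Peak density was also counted for each gene. The 10 windows held 3.21 times the number of peaks that the rest of their own chromosomes would give at equal density (2.43 to 4.16, exact 95% Poisson interval). With peaks up to 1 kb apart merged it was 2.78 times. The Poisson intervals given here treat peaks as independent, though neighbouring peaks can be related. NOTCH1 had 172 peaks per Mb (98.3 to 279) against 20.9 on the rest of chromosome 9. DLL4 had 157 (67.7 to 309) against 19.4, JAG2 145 (69.5 to 267) against 20.1, and DLL1 122 (44.9 to 267) against 13.2. For the other 6 the interval held the chromosome's own density. HEY1 had 66.7 (13.7 to 195) against 13.9, HEY2 56.6 (11.7 to 165) against 13.2, and HES1 45.5 (5.50 to 164) against 12.6. The intervals of these target genes were wide and overlapped those of NOTCH1, DLL4, JAG2 and DLL1, so density does not separate them. JAG1 had 39.0 (8.03 to 114) against 25.3. NOTCH2 was the lowest with 5.03 peaks per Mb (0.127 to 28.0) against 21.5, and NOTCH3, with 61.0 (19.8 to 142), stood beside the 57.3 of chromosome 19. By covered sequence, 9 of the 10 windows lay above their chromosome and NOTCH2 did not, at 1.73% against 4.32%. A chromosome holds long stretches without genes, so this is no comparison with other genes. In 8 of the 10 windows RefSeq places another protein-coding gene, the exceptions being NOTCH3 and HEY1, and peaks in the flanks were not assigned to a gene.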

How the data were processed

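The data were 1 ChIP library and 1 input library; the labels' protocols describe DNA purification but no immunoprecipitation step. Reads were aligned with BWA 0.7.17 to hg19, per the submitters' processing notes, and peaks carry MACS names in the deposited file; its version and settings were not stated. The authors deposited a score per peak, without a unit, and it serves here to rank and describe peaks of the list. Reads and input coverage were not analysed here, so depth is unknown.

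Peaks overlapping a span widened by 20 kb by at least 1 bp were assigned to its gene, using pandas 2.3.3, scipy 1.17.1 and numpy 2.4.6 under Python 3.11.15. Spans are rounded to whole kb and exceed the RefSeq gene length by 0.042 to 1.415 kb. Distances and shares before or inside a gene are measured from the ends of its span and carry that rounding. Gene direction came from the RefSeq promoter table for 8 genes and from general knowledge for DLL1 and HEY1. Chromosome density was computed between first and last peak without peak-free gaps over 1 Mb. The overlap and coverage code was tested on simulated data. For each gene the 5′ peak, the highest and the widest peak are named; further peaks were named after their values were seen. Genes and tests were chosen with earlier results of these data known. Other genes of the pathway (NOTCH4, DLL3, RBPJ, LFNG, HES5, HEYL and further) were to be counted given hg19 annotation, which was not used here. Positions of peaks are on hg19, counted from 1.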

Additional observations from a re-analysis of the deposited data

How the results depend on the processing

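For the 7 results 105 alternatives were computed, and 9 moved. The other 96 differed from the value given by at most 1.5 times (counts, covered share) or lay in its counting or order-statistic interval. Of the 105, 60 left out 1 gene each, a small change, and none of these moved. All 9 that moved were among the remaining 45. The number of peaks was 33 with no flank, 97 with a flank of 50 kb, 29 in the upper 50% of all peaks by score and 19 in the top 25%. In these stricter sets the median width was 3442 and 5210 bp and the median score 1172.9 and 2418.17; a threshold on score raises the score by construction, and the cause of the rise in width was not tested. The density fold was 4.20 in the top 25%. All 10 genes kept a peak at the 5′ end under every alternative run on it (within 1 or 5 kb, stricter scores, merging). None of these could lower the count, so they add no support. The outermost kb was already covered in full at each gene, and the lowest 5′ peak, at 1589.7, scored above the list's upper quartile of 659. Leaving out each gene in turn gave 41 to 56 peaks, 16.3% to 27.0% covered, 7 to 9 peaks at the ceiling, a median width of 1487 to 1896 bp and a fold of 2.59 (without NOTCH1) to 4.15 (without NOTCH2). The median score was 153.6 to 352.4, the highest without JAG2. Merging peaks up to 1 kb apart put it at 518.63, inside the order-statistic interval of 96.7 to 563 but 2.75 times the value given. No paired analysis was possible because there was only 1 library of each kind. Unknown depth limits every statement on sequence without a peak.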

Other observations

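Just outside the windows, between 20 and 50 kb from the spans, 40 further peaks lay, 25 before and 15 after the genes, and 1 of them was at the ceiling. That peak stood before NOTCH1, on chromosome 9 from 139478072 to 139484377 (6306 bp), in a band that held 7 peaks on that side and none on the other. The strongest peaks of the other bands scored 1657 after NOTCH3 (8 peaks in the band), 1590.0 after JAG2 (8 peaks), 1391 before DLL4 (4 peaks) and 1284.5 after HEY2 (its only peak there). DLL1 had 6 peaks, all after the gene and up to 419. The bands of HES1 and HEY1 held 3 and 2 peaks up to 99.1 and 122, NOTCH2 had 1 peak of 3593 bp at 259, and JAG1 had none.

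Several peaks of the loci were separated by gaps of up to 1 kb, and joining them lengthened the stretches. At NOTCH1 the 5′ stretch then reached 13615 bp (2 peaks), and the pair that followed inside the gene 11641 bp. The DLL4 5′ stretch reached 10116 bp (2 peaks), that of JAG2 9985 bp (3 peaks) and that of HEY1 7637 bp (2 peaks), while those of HES1, NOTCH2, NOTCH3, DLL1, JAG1 and HEY2 had no peak that near. Whether such strings are single domains was not tested.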
